A study of Mus musculus with 6 samples.

Results

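The cytochrome P450 genes described here are those with a transcript cluster whose only gene symbol on the array platform is a Cyp symbol, leaving out symbols marked -ps, for pseudogenes, and the genes Cyp51, Cyp24a1 and Cyp27b1. The symbols taken by that rule number 87. For 59 of them the cluster with the highest mean had a mean over all arrays above 4.03 on the log2 scale, the filter that kept 43992 of 65956 clusters, and these 59 are the members whose values follow, out of 22098 named genes tested in all. Total RNA of whole kidneys was measured on 6 one-colour expression arrays, one for each female mouse. All 6 mice carried the Pkd1 miR transgene, which models polycystic kidney disease, and were killed at postnatal day 63. From postnatal day 35 the control group of 3 mice was injected with saline and the other 3 mice with metformin into the peritoneum at 150 mg/kg/day. The sources used here do not name the promoter that drives the transgene, the cells that express it or the strain, and no mice without the transgene were compared.

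Cytochrome P450 enzymes are haem proteins that insert an oxygen atom into lipids, steroids and foreign compounds, using electrons passed on by a reductase, by cytochrome b5 or, in mitochondria, by a ferredoxin. In the kidney they are best known for the arachidonic acid pathway, in which Cyp2c and Cyp2j epoxygenases form epoxyeicosatrienoic acids and Cyp4 omega-hydroxylases form hydroxyeicosatetraenoic acids, lipid mediators of vessel tone and salt transport. Most renal P450 expression lies in the proximal tubule. Metformin is a biguanide drug for diabetes.

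Most members, among those that fell with metformin and among those that did not pass, lie in groups of neighbouring paralogs. The start regions of members from these groups are therefore printed first. RefSeq (GRCm38.p6) promoter windows of 300 bases, from 250 bases before the transcript start to 50 after it, were matched for 44 of the 59 members. One window is shown for each of the 5 gene clusters with at least 5 neighbouring members, that of the member with the smallest p among those that passed the test and had a window. They are Cyp2d26 (chr15:82794196-82794495, minus strand), Cyp2c40 (chr19:39812765-39813064, minus strand), Cyp2j11 (chr4:96348631-96348930, minus strand), Cyp4a32 (chr4:115600688-115600987, plus strand) and Cyp4f13 (chr17:32947312-32947611, minus strand). Each is written 5′ to 3′ along its gene, and capitals mark the letters of any of 3 short motifs searched on both strands.
Cyp2d26: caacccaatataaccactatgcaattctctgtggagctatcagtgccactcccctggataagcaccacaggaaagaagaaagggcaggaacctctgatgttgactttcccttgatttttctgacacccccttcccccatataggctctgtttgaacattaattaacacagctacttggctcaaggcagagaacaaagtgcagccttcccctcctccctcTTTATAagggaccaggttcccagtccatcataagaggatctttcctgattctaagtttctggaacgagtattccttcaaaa
Cyp2c40: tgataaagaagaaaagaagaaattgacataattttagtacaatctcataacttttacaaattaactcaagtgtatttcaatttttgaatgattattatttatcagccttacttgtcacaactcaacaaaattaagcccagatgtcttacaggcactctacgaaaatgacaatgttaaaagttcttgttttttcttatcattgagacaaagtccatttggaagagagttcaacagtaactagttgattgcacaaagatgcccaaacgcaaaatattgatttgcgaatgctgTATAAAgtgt
Cyp2j11: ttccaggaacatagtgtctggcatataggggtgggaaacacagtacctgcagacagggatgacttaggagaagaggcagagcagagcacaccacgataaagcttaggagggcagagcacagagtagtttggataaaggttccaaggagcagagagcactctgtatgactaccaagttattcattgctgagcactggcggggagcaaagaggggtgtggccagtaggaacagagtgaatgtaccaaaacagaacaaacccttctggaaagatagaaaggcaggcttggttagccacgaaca
Cyp4a32: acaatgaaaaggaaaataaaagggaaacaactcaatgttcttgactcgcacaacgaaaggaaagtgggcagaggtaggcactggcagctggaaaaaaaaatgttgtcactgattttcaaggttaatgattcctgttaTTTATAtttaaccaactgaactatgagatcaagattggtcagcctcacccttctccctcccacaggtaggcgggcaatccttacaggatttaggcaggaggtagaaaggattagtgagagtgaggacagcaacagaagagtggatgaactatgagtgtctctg
Cyp4f13: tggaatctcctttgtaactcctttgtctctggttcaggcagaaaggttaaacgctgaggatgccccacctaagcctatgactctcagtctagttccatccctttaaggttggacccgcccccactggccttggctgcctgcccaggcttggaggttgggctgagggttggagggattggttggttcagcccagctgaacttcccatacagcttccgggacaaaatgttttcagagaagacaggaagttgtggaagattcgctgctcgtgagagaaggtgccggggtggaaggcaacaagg
The motifs were AGGTCA, the half-site of many nuclear receptors, GCGTG, the core bound by Ahr with Arnt, and TATAAA, the TATA box. No base belonged to more than 1 of them in these windows. The Cyp2d26 window held TATAAA on the other strand 31 bases before the start. In the Cyp2c40 window TATAAA lay after the start, at base 41. The Cyp4a32 window held TATAAA on the other strand 113 bases before the start. The Cyp2j11 and Cyp4f13 windows held none of the 3. Over the members with a window, TATAAA was found in 16 of 44 (36.4%, against 14.2% of all 27025 genes with a window), in 6 of the 11 that fell and 10 of the 33 that did not pass. AGGTCA was found in 6 of 44 (13.6%, against 16%), 3 of 11 and 3 of 33. GCGTG was found in 11 of 44 (25%, against 32.5%), 1 of 11 and 10 of 33. These are letter matches in 1 window per gene and describe the sequence only.

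Some P450 genes were lower in the metformin kidneys, 4 of 17 epoxygenases, 5 of 14 omega-hydroxylases, 6 of 15 xenobiotic enzymes and 1 of 5 enzymes of the sterol side chain and bile acids, and most did not pass the test. These groups were assigned by gene symbol, not by the known activity of each enzyme. Of the 59 members 16 fell and 0 rose at a Benjamini-Hochberg adjusted p under 0.05 in the limma fit over all 22098 genes. The share that fell was 27.1%, where 9.08% of all genes fell, 6.71% rose and 15.8% changed in either direction. The change, metformin minus saline in log2 units throughout, ran from -1.28 for Cyp2c23 to 0.15 for Cyp46a1, with a median of -0.32 against 0.02 over all genes tested. It was below 0 for 51 of the 59. In 29 members (49.2%) every metformin array lay below every saline array, as in 19.4% of all genes, and in 0 members every metformin array lay above every saline array, as in 17.8% of all genes. Of the 45 members whose mean was above the median of all clusters 15 fell, and of the 14 members at or under it 1 did, Cyp2f2. When only the 17584 genes with a mean above that median were fitted, 2166 of them fell, and 16 of the 45 members. As deposited, 1483 of all genes rose and 2006 fell. After median-centring of the arrays 912 rose and 2713 fell, and after quantile normalization 993 rose and 3806 fell. With quantile normalization the median change was -0.10 over all genes (0.02 as deposited) and -0.51 over the members, and 27 members then fell. Errors of a change are standard errors of the limma fit, with n = 3 mice per group.

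**Figure D1:**
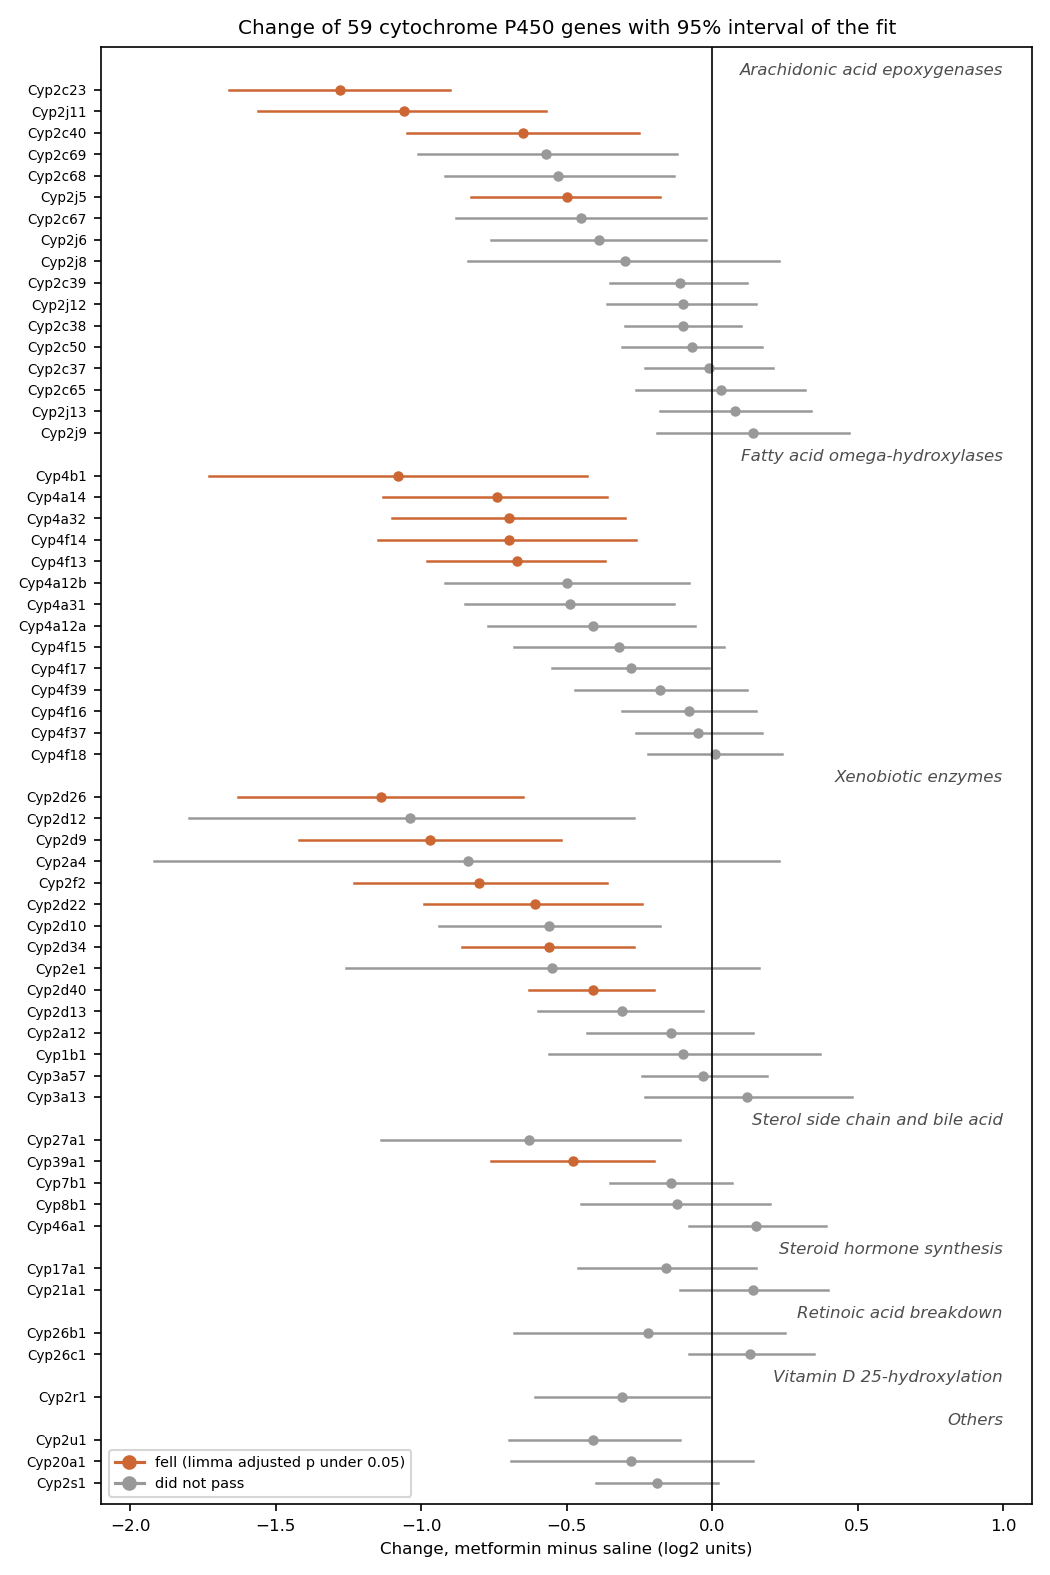
Change of each of the 59 P450 members, metformin minus saline in log2 units, with the 95% interval of the limma fit, ordered within each functional group. Orange marks the 16 that fell at an adjusted p under 0.05, with Cyp2c23 lowest at -1.28, and grey those that did not pass.

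The counts changed when single mice were left out. With saline array 1 left out 1 member passed, Cyp2c23. With saline arrays 2 and 3 left out in turn 18 and 8 passed, and with metformin arrays 1, 2 and 3 left out 3, 6 and 4 passed. The calls over all genes, 3489 with every array, changed too. They were 842, 3961 and 1965 without saline arrays 1, 2 and 3. Without metformin arrays 1, 2 and 3 they were 1249, 1368 and 1953. The members' median change stayed between -0.41 and -0.31. Cyp2c23 passed in all 6 of these fits and in the 9 other alternative settings tried. Cyp2d26 passed in 5 of the 6, and was lost without saline array 1 at an adjusted p of 0.0689. Cyp4f13 passed in 4, Cyp2j11, Cyp4a14 and Cyp2d9 in 3, Cyp4b1 in 2, Cyp4a32 in 0, and each of the other 8 in 1. Among the members that fell, metformin array 1 was the lowest metformin array for 13 of 16, and saline array 2 the lowest saline array for 10 of 16.

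**Figure D2:**
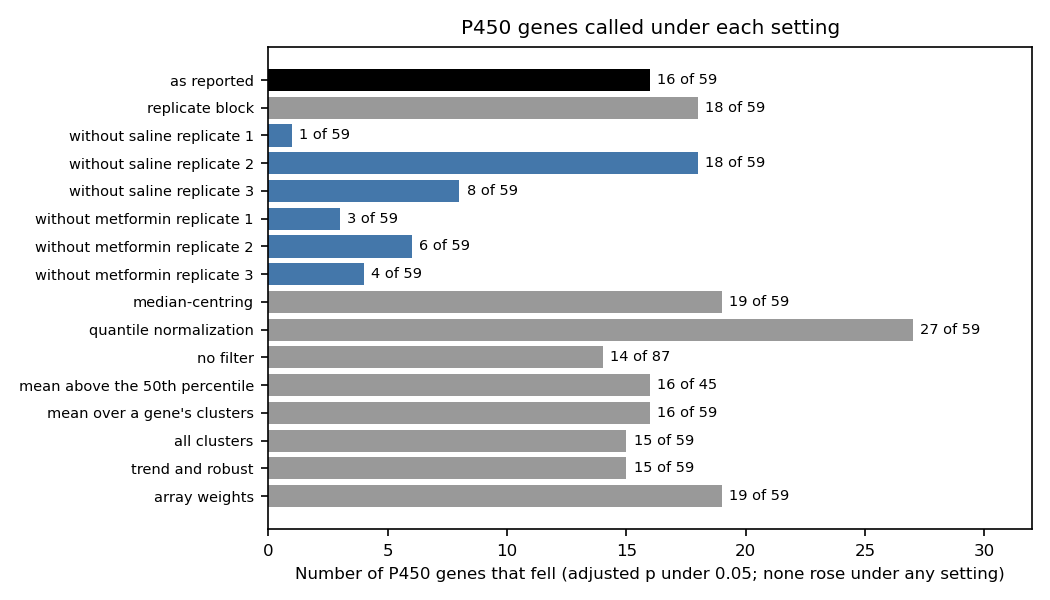
Number of P450 members that fell at an adjusted p under 0.05 under each setting, beside the number tested. The count is 16 as reported, 1 to 18 with 1 array left out, and 27 after quantile normalization.

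The group named arachidonic acid epoxygenases took every Cyp2c and Cyp2j symbol, whatever the activity of its enzyme. It had 17 members, of which 4 fell (Cyp2c23, Cyp2j11, Cyp2c40 and Cyp2j5) and 13 did not pass. Their median change was -0.30, and 14 were below 0. Cyp2c23, also known as Cyp2c44 and regarded as the chief arachidonic acid epoxygenase of the mouse kidney, read 13.25, 12.83 and 13.01 on the saline arrays and 11.48, 11.77 and 12.01 on the metformin arrays, in the order of replicates 1 to 3 as in all values below. The groups stood apart by more than the range within either. It fell by 1.28 ± 0.16 (2.43-fold, adjusted p = 0.00735). Cyp2c40, whose enzyme hydroxylates arachidonic acid, read 5.47, 4.96 and 5.65 with saline and 4.72, 4.72 and 4.67 with metformin. Its metformin values were nearly equal, and saline array 2 was the saline array nearest to them. It fell by 0.65 ± 0.17 (1.57-fold, adjusted p = 0.0423).

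Close relatives of Cyp2c40 had changes of similar size that did not pass. Cyp2c67, Cyp2c68 and Cyp2c69 changed by -0.45 ± 0.19 (adjusted p = 0.142), -0.53 ± 0.17 (adjusted p = 0.0757) and -0.57 ± 0.19 (adjusted p = 0.0844). On saline array 2 each of them read lower than on saline arrays 1 and 3, 5.24 against 5.86 and 5.75 for Cyp2c68. With replicate number as a block in the fit Cyp2c68 passed (adjusted p = 0.0369). The other 5 members of the subfamily (Cyp2c37, Cyp2c38, Cyp2c39, Cyp2c50 and Cyp2c65) ranged from -0.11 to 0.03 and read between 4.11 and 5.86 on every array. Stretches of Cyp2c, Cyp2d, Cyp2j, Cyp4a and Cyp4f sequence are near-identical between paralogs, and the sources used here do not say how probes were assigned to them, so the values of close paralogs may share signal and are uncertain as values of 1 gene.

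Of the Cyp2j subfamily 2 of 7 members fell. Cyp2j11 read 16.09, 15.55 and 16.04 with saline and 14.47, 14.84 and 15.17 with metformin. All metformin values lay below all saline values, and Cyp2j11 fell by 1.06 ± 0.21 (2.09-fold, adjusted p = 0.0201). Cyp2j5, an epoxygenase known from the proximal tubule, read 17.33, 17.02 and 17.39 with saline and 16.55, 16.79 and 16.89 with metformin. The gap between the groups was narrow, 16.89 against 17.02, and it fell by 0.50 ± 0.14 (1.42-fold, adjusted p = 0.049). Cyp2j6 changed by -0.39 ± 0.16 (adjusted p = 0.142) and Cyp2j8 by -0.30 ± 0.23 (adjusted p = 0.41), both with overlapping groups. Cyp2j9 was 0.14 ± 0.14 (adjusted p = 0.541) and read 9.18 and 9.27 on metformin arrays 2 and 3, above the highest saline value of 8.98. Cyp2j12 and Cyp2j13 were near 0, at -0.10 and 0.08, the latter turning to -0.01 after median-centring and -0.09 after quantile normalization. Without saline arrays 1, 2 and 3 the number of epoxygenases that fell was 1, 8 and 2, and without metformin arrays 1, 2 and 3 it was 1, 1 and 2.

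Fatty acid omega-hydroxylases of the Cyp4 family had 14 members, of which 5 fell (Cyp4b1, Cyp4a14, Cyp4a32, Cyp4f14 and Cyp4f13) and 9 did not pass. Their median change was -0.45, with 13 below 0. The enzymes oxidise the end of the fatty acid chain, and Cyp4a genes are classic targets of the fatty acid receptor Ppara. For all 5 Cyp4a members every metformin array lay below every saline array, as in 19.4% of all genes. Of the 5, 2 fell, where 9.08% of all genes fell. Close paralogs may share signal, so these may not be 5 separate readings. Cyp4a14 read 16.16, 16.31 and 16.31 with saline and 15.15, 15.79 and 15.61 with metformin. Metformin array 1 was the lowest, and it fell by 0.74 ± 0.17 (1.67-fold, adjusted p = 0.0274). Cyp4a32 read 15, 15.11 and 15.34 with saline and 14.09, 14.67 and 14.59 with metformin. Here too metformin array 1 was the lowest, and it fell by 0.70 ± 0.17 (1.62-fold, adjusted p = 0.036).

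The other 3 Cyp4a members had changes of -0.41 to -0.50 that did not pass. Cyp4a31 changed by -0.49 ± 0.15 (adjusted p = 0.0721, and 0.0459 with replicate number blocked). Cyp4a12a and Cyp4a12b, whose transcripts are known as male-predominant in mouse kidney and which were measured here in females, changed by -0.41 ± 0.15 (adjusted p = 0.109) and -0.50 ± 0.18 (adjusted p = 0.102). Their highest values were on saline array 3, 8.25 and 8.85. All 3 passed after quantile normalization.

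Cyp4b1, a Cyp4 enzyme of medium-chain fatty acids and of several protoxins, read 13.56, 12.95 and 13.39 with saline and 11.70, 12.79 and 12.17 with metformin. Its metformin values were spread over more than 1 log2 unit, from 11.70 on array 1 to 12.79 on array 2, just under the lowest saline value. It fell by 1.08 ± 0.28 (2.12-fold, adjusted p = 0.0404), and with replicate number blocked it did not pass (adjusted p = 0.0664). Of the 8 Cyp4f members, a subfamily known for omega-hydroxylation of leukotrienes, 2 fell. Cyp4f13 read 9.46, 9.13 and 9.47 with saline and 8.51, 8.78 and 8.75 with metformin. The groups were clearly apart, and it fell by 0.67 ± 0.13 (1.59-fold, adjusted p = 0.0189). Cyp4f14, a leukotriene B hydroxylase, read 6.14, 5.61 and 6.31 with saline and 5.09, 5.42 and 5.43 with metformin. Saline array 2 lay within 0.2 of the metformin group, and it fell by 0.70 ± 0.19 (1.63-fold, adjusted p = 0.0467). The 6 Cyp4f members that did not pass ranged from -0.32 ± 0.15 for Cyp4f15 to 0.01 ± 0.10 for Cyp4f18, and of these Cyp4f17 alone did not overlap between groups (-0.28 ± 0.12, adjusted p = 0.146). Without saline arrays 1, 2 and 3 the number of omega-hydroxylases that fell was 0, 4 and 1, and without metformin arrays 1, 2 and 3 it was 1, 3 and 1.

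Xenobiotic enzymes had 15 members, of which 6 fell and 9 did not pass, with a median change of -0.56. The 6 were Cyp2f2 and 5 of the 8 Cyp2d members, a subfamily whose human relative oxidises many basic drugs. All 8 Cyp2d changes were below 0, from -1.14 to -0.31. In 7 of the 8 every metformin array lay below every saline array, as in 19.4% of all genes. With signal possibly shared between close paralogs, these may not be 8 separate readings. Cyp2d26 read 16.27, 15.96 and 16.02 with saline and 14.46, 15.23 and 15.15 with metformin. The saline values were close together, metformin array 1 was the lowest by 0.7, and Cyp2d26 fell by 1.14 ± 0.21 (2.20-fold, adjusted p = 0.0158). Cyp2d9, a steroid hydroxylase known as male-predominant in liver, read 10.70, 10.44 and 10.43 with saline and 9.29, 10 and 9.37 with metformin. Metformin array 2 was the nearest to saline, and it fell by 0.97 ± 0.19 (1.96-fold, adjusted p = 0.0202).

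The other 3 Cyp2d members that fell had smaller changes. Cyp2d22 read 9.57, 9.28 and 9.08 with saline and 8.46, 8.90 and 8.73 with metformin. It fell by 0.61 ± 0.16 (1.53-fold, adjusted p = 0.0426), and did not pass with replicate number blocked (adjusted p = 0.0604). Cyp2d34 read 5.80, 5.51 and 5.74 with saline and 4.92, 5.20 and 5.23 with metformin, and fell by 0.56 ± 0.13 (1.48-fold, adjusted p = 0.028). Cyp2d40 had little spread within groups, at 5.54, 5.38 and 5.57 with saline and 5.11, 5.06 and 5.07 with metformin. It fell by 0.41 ± 0.09 (1.33-fold, adjusted p = 0.0273). Cyp2d12 had one of the largest changes of the family, -1.04 ± 0.33, but did not pass (adjusted p = 0.0707). It read 10.18, 9.44 and 10.32 with saline and 8.27, 9.35 and 9.20 with metformin, so that saline array 2 and metformin array 2 differed by less than 0.1. Cyp2d10 was just outside the threshold at -0.56 ± 0.16 (adjusted p = 0.0558) and passed after median-centring. Cyp2d13 changed by -0.31 ± 0.12 (adjusted p = 0.123).

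Cyp2f2, best known for naphthalene activation in airway club cells, read 5.41, 5.11 and 4.64 with saline and 4.20, 4.33 and 4.24 with metformin. The metformin values lay close to the filter at 4.03, and it fell by 0.80 ± 0.18 (1.74-fold, adjusted p = 0.0305). Cyp2a4, a steroid hydroxylase, had the widest spread of the family, reading 13.16, 12.55 and 14.37 with saline and 11.94, 12.59 and 13.02 with metformin. The groups overlapped and its change of -0.84 ± 0.46 did not pass (adjusted p = 0.256). Cyp2e1, the enzyme of ethanol and small solvents, read 14.69, 14.87 and 13.81 with saline and 14.19, 14.07 and 13.46 with metformin. In both groups array 3 was the lowest, its change was -0.55 ± 0.30 (adjusted p = 0.259), and with replicate number blocked it passed (adjusted p = 0.0324). Cyp1b1, an estrogen hydroxylase induced through Ahr, read 10.29, 10.23 and 9.65 with saline and 9.85, 10.23 and 9.79 with metformin, a change of -0.10 ± 0.20 (adjusted p = 0.782). Cyp3a13, Cyp3a57 and Cyp2a12 were at 0.12 ± 0.15, -0.03 ± 0.09 and -0.14 ± 0.12, with adjusted p of 0.63, 0.877 and 0.469, and Cyp3a13 turned to -0.05 after quantile normalization. Without saline arrays 1, 2 and 3 the number of xenobiotic enzymes that fell was 0, 6 and 4, and without metformin arrays 1, 2 and 3 it was 1, 2 and 1.

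**Figure D3:**
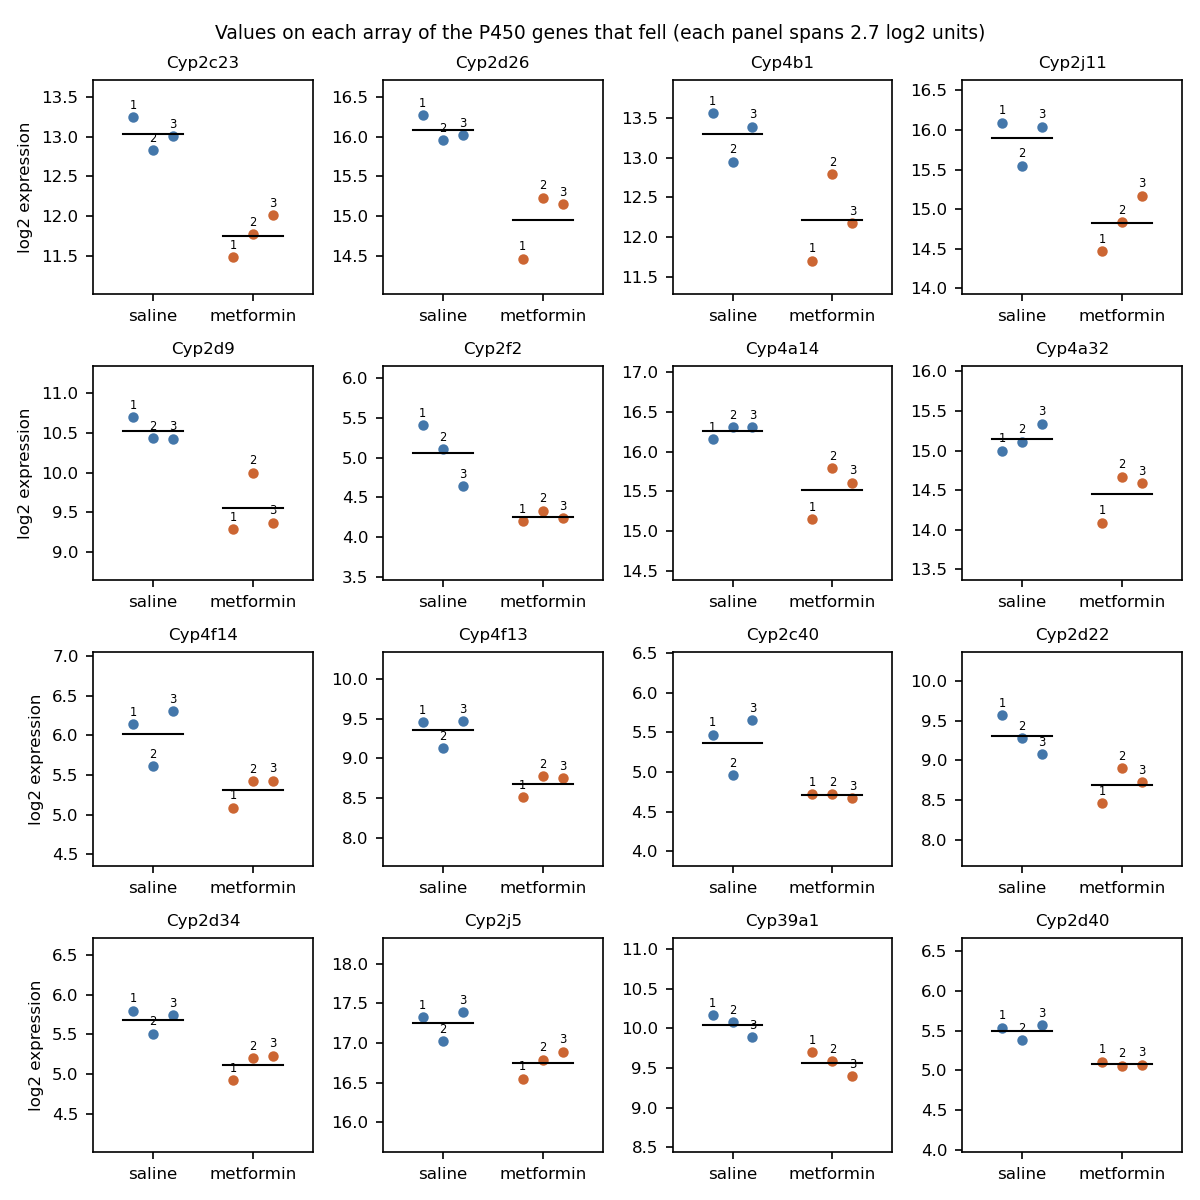
Log2 expression of the 16 P450 members that fell on each of the 3 saline and 3 metformin arrays, numbered by replicate, with the group mean as a line and every panel spanning the same range. In all 16 panels the metformin points lie below the saline points, and metformin array 1 is the lowest metformin array in 13.

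P450 enzymes with fixed roles in sterol, steroid, retinoid and vitamin D metabolism made up 10 members, and 1 of them fell. This was Cyp39a1, an oxysterol hydroxylase of bile acid synthesis, which read 10.17, 10.08 and 9.89 with saline and 9.70, 9.59 and 9.40 with metformin. In both groups array 3 was the lowest and array 1 the highest, and it fell by 0.48 ± 0.12 (1.40-fold, adjusted p = 0.0366). Cyp39a1 was lost when any of saline arrays 1 and 2 and metformin arrays 1, 2 and 3 was left out, with an adjusted p of up to 0.124. Cyp27a1, the mitochondrial sterol side chain hydroxylase, read 9.06, 8.60 and 8.52 with saline and 7.70, 8.47 and 8.13 with metformin. The groups did not overlap but came within 0.1 of each other, and the change of -0.63 ± 0.22 did not pass (adjusted p = 0.0956). Cyp7b1, an oxysterol hydroxylase, stood at 7.72, 7.71 and 7.72 with saline and 7.68, 7.50 and 7.56 with metformin, a change of -0.14 ± 0.09 (adjusted p = 0.343). Cyp8b1 and Cyp46a1 did not pass, at -0.12 ± 0.14 and 0.15 ± 0.10 (adjusted p = 0.588 and 0.335).

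The enzymes of steroid hormone synthesis Cyp17a1 and Cyp21a1 read between 4.26 and 4.73 on every array and changed by -0.16 ± 0.13 and 0.14 ± 0.11 (adjusted p = 0.454 and 0.424). The retinoic acid hydroxylases Cyp26b1 and Cyp26c1 changed by -0.22 ± 0.20 and 0.13 ± 0.09 (adjusted p = 0.501 and 0.373). Cyp2r1, a vitamin D hydroxylase best known from liver, read 7.22, 6.94 and 6.94 with saline and 6.88, 6.75 and 6.54 with metformin. Its groups did not overlap, and the change of -0.31 ± 0.13 did not pass (adjusted p = 0.145). Of the 3 members outside these groups, Cyp2u1, a fatty acid hydroxylase, read 6.87, 6.99 and 7.17 with saline and 6.41, 6.64 and 6.75 with metformin. Its change was -0.41 ± 0.13 (adjusted p = 0.0667), and it passed with replicate number blocked (adjusted p = 0.0311) and after median-centring. Cyp2s1 and the orphan enzyme Cyp20a1 changed by -0.19 ± 0.09 (adjusted p = 0.192) and -0.28 ± 0.18 (adjusted p = 0.331).

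The 28 symbols below the filter read between 3.06 and 4.2 on the 6 arrays, and their changes lay between -0.10 and 0.12. They include the classic inducible genes Cyp1a1, Cyp1a2, Cyp2b10 and Cyp3a11, with means of 3.49, 3.83, 3.47 and 3.70, the bile acid enzyme Cyp7a1 at 3.22, and the adrenal genes Cyp11a1, Cyp11b1 and Cyp11b2 at 3.77, 3.80 and 3.88. The members just above the filter were Cyp2a12 at 4.05 and Cyp3a57 at 4.10, and the symbols just below it Cyp2c66 at 4.02 and Cyp2ab1 at 4.01. In the fit without a filter 14 of all 87 symbols fell and 0 rose.

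Neighbouring paralogs were then read in the order of the RefSeq gene table (GRCm38.p6), restricted to protein-coding genes and members. Successive members at most 10 places apart in that order were counted as one gene cluster. In the Cyp2d cluster 5 of 8 members fell, where 9.08% of all genes fell, and the changes ran from -1.14 to -0.31. The smallest of them was that of Cyp2d13, which RefSeq lists as a transcribed pseudogene and which lies between Cyp2d34 and Cyp2d40. In the Cyp4a and Cyp4b cluster 3 of 6 fell, and the changes ran from -1.08 to -0.41. The Cyp2c cluster was uneven. Cyp2c67, Cyp2c68, Cyp2c40 and Cyp2c69 are adjacent and changed by -0.45, -0.53, -0.65 and -0.57, whereas Cyp2c38 on one side and Cyp2c37 on the other changed by -0.10 and -0.01. Cyp2c23 lies apart from that cluster. In the Cyp4f cluster the 2 members that fell, Cyp4f14 and Cyp4f13, are next to each other at one end. In the Cyp2j cluster Cyp2j9, at 0.14, lies beside Cyp2j5, at -0.50. The differences between neighbours were not tested, and adjacency and shared sequence cannot be told apart here.

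**Figure D4:**
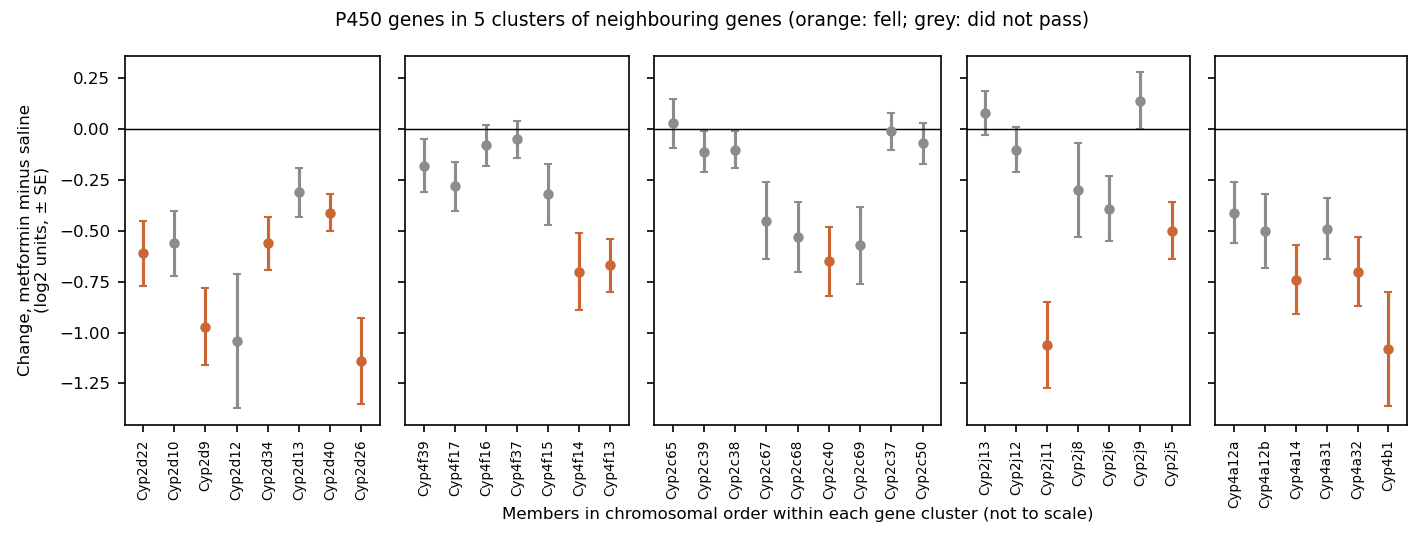
Change (log2 units, with the limma standard error) of members in 5 clusters of neighbouring P450 genes, in chromosomal order and not to scale. Changes run from -1.14 to -0.31 along the Cyp2d cluster and from -1.08 to -0.41 along the Cyp4a and Cyp4b cluster, while in the Cyp2c cluster an adjacent run from Cyp2c67 to Cyp2c69 lies between -0.45 and -0.65 with members near 0 on both sides.

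Of the genes listed as serving or controlling P450 enzymes 28 were tested, and 6 fell and 0 rose (the share of all genes that fell was 9.08%, as above). Their median change was -0.25, and 20 were below 0. Cyb5b, the outer mitochondrial membrane form of cytochrome b5, read 13.41, 13.31 and 13.47 with saline and 12.09, 12.17 and 12.36 with metformin. The spread within each group was small, and Cyb5b fell by 1.19 ± 0.11 (2.28-fold, adjusted p = 0.00676). Fdx1, the ferredoxin that feeds mitochondrial P450 enzymes, fell by 0.69 ± 0.15 (adjusted p = 0.027). Ephx2, the soluble epoxide hydrolase that breaks down epoxyeicosatrienoic acids, read 13.24, 13.19 and 13.06 with saline and 11.93, 12.39 and 12.29 with metformin. It fell by 0.96 ± 0.14 (1.95-fold, adjusted p = 0.00865), in the same kidneys in which the epoxygenase Cyp2c23 fell. Cyb5b and Ephx2 passed in all 6 fits with 1 array left out.

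Among the regulators Ppara, the fatty acid receptor upstream of Cyp4a genes, read 10.95, 10.78 and 11.11 with saline and 9.30, 10.27 and 10.12 with metformin. Metformin array 1 was the lowest, as it was for 13 of the 16 members that fell, and Ppara fell by 1.05 ± 0.24 (2.06-fold, adjusted p = 0.0312). The part of Ppara in the Cyp4a changes was not tested. Tiparp, an Ahr target that restrains Ahr, fell by 0.61 ± 0.12 (adjusted p = 0.0204), and the glucocorticoid receptor Nr3c1 by 0.33 ± 0.09 (adjusted p = 0.0434, and 0.0512 with replicate number blocked). The hepatocyte nuclear factor Hnf4a, the pregnane X receptor Nr1i2 and the liver X receptor Nr1h3 were not past the threshold at -0.51 ± 0.16 (adjusted p = 0.069), -0.42 ± 0.13 (adjusted p = 0.0689) and -0.40 ± 0.11 (adjusted p = 0.0525). With replicate number blocked Nr1i2 and Nr1h3 passed (adjusted p = 0.0311 and 0.032) and Hnf4a did not (adjusted p = 0.0549). Nr0b2, Nr1h4, Rxra, Stat5b and Nr1i3 changed by -0.33, -0.57, -0.18, -0.10 and -0.04, and Foxa2 and Ppargc1a by 0.09 and 0.11. None of these passed in the main limma fit (adjusted p from 0.0661 to 0.824). Ahr itself changed by 0.08 ± 0.23, which turned to -0.01 after median-centring and -0.08 after quantile normalization, and its partner Arnt by 0.17 ± 0.10 (adjusted p = 0.856 and 0.298). Without saline arrays 1, 2 and 3 the number of all partner and regulator genes that fell was 2, 6 and 3. Without metformin arrays 1, 2 and 3 it was 4, 3 and 3. Por, Fdx2, Fdxr, Cyb5a and Ahrr were not analysed here.

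Markers of the tubule segment that holds most renal P450 expression were also lower with metformin. Of 16 listed proximal tubule genes, 6 fell (Slc22a8, Slc3a1, Slc5a12, Slc6a19, Slc7a7 and Slc7a9), where 9.08% of all genes fell. In this list 0 rose, and all 16 changes were below 0. An array score, the mean over a list's genes of each value minus that gene's own 6-array mean, was 0.39, 0.13 and 0.72 on the saline arrays and -0.87, -0.33 and -0.04 on the metformin arrays for this list. For the 59 P450 members the score was 0.26, 0.07 and 0.25 with saline and -0.27, -0.12 and -0.18 with metformin. Metformin array 1 was the lowest in both scores, and saline array 2 the lowest saline array in both. The highest arrays differed. They were saline array 3 and metformin array 3 for the proximal tubule score. For the P450 score they were metformin array 2 and, nearly level with saline array 3, saline array 1. The median change of the 16 proximal tubule genes was -0.84. In 14 of the 16 every metformin array lay below every saline array, as in 19.4% of all genes. In whole-kidney RNA fewer cells of a type and less RNA per cell cannot be told apart, and the part of the proximal tubule markers in the P450 changes was not tested.

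Other marker lists also differed between arrays, and their counts stand beside 9.08% of all genes that fell and 6.71% that rose. The 10 adipocyte genes tested had scores of 0.78, 1.51 and -0.32 with saline and -0.73, -0.62 and -0.62 with metformin, with 1 gene that fell (Adipoq) and 0 that rose. Pck1, also on this list, read 15.99, 16.45 and 16.50 with saline, highest on saline array 3, where the score was the lowest of the saline arrays. Ucp1 of brown fat read 7.46, 10.29 and 4.68 with saline and 3.74 to 3.96 with metformin, so that fat transcripts were high on saline arrays 1 and 2 and not on saline array 3. The 5 urothelium genes had a score of 1.5 on saline array 1, 0.36 and -0.38 on saline arrays 2 and 3 and -0.84 to -0.25 with metformin, and 0 passed. Of 7 macrophage genes 1 rose (Lyz2), with scores of -1.08 to 0.40 with saline and 0.12 to 0.58 with metformin. Of 5 hepatocyte genes 2 fell (Alb and Apoa2) and 0 rose, with changes from -1.51 to 1.26. Of 6 adrenal cortex genes 1 fell, Fdx1, while the defining adrenal genes Star and Nr5a1 read 4.02 to 4.34 on every array. Of 7 smooth muscle and fibroblast genes 1 fell and 1 rose, of 5 endothelium genes 1 fell, and of 6 collecting duct genes 2 fell. The part of these lists in the P450 changes was not tested.

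**Figure D5:**
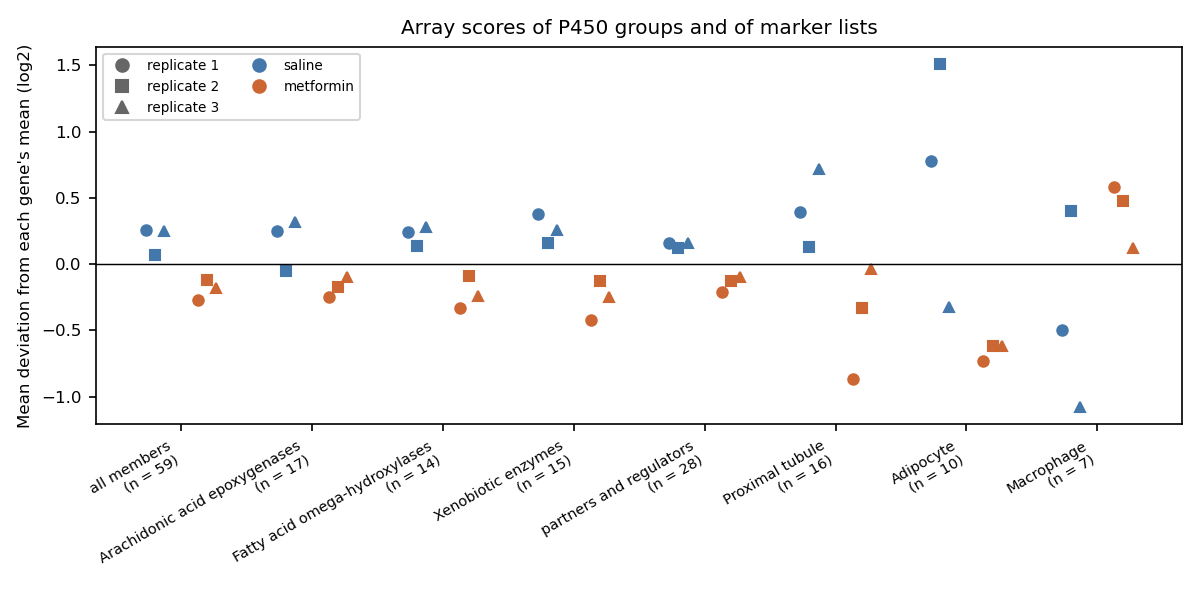
Array scores (mean deviation of the genes from their own 6-array means, log2 units) of the P450 members, their 3 largest groups, the partner genes and 3 marker lists, with saline in blue, metformin in orange and the replicate by marker shape. Saline and metformin scores of all members do not overlap (0.07 to 0.26 against -0.27 to -0.12), and the proximal tubule score has the same arrays lowest in each group. The highest array in each group differs between those scores.

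Pkd1, the gene the transgene targets, read 6.70, 7.16 and 6.67 with saline and 7.57, 7.58 and 7.34 with metformin, a rise of 0.65 ± 0.15 (adjusted p = 0.0317). All 6 mice carry the transgene, so this value does not check the model. Array medians lay between 4.67 and 4.86, and arrays correlated across transcript clusters at 0.993 to 0.996 within groups and 0.984 to 0.993 between them. The number of arrays limits the precision of every value given.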

How the data were processed

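Per the submitters' processing notes, the authors used RMA and Transcriptome Analysis Console 4.0, and what they deposited is a log2 value for each transcript cluster on each array. RNA was extracted from frozen kidney with TRIzol and labelled with biotin, per the labels' protocols, using the WT PLUS kit. Genome build, probe definition and RMA settings: not given in the sources used here. Values reach 19.93, more than a scanner's usual range gives on a log2 scale, so fold changes hold on the deposited scale. Of 65956 clusters 30604 had 1 platform symbol, 2146 several, and 33206 were not listed. Symbols were updated through RefSeq gene tables (GRCm38.p6; 22818 matched, 827 changed). After the filter on the mean (above 4.03) 43992 clusters were kept, with the highest-mean cluster per gene, which gave 22098 genes.

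All genes were fitted with limma 3.58.1 in R 4.3.3 (lmFit, eBayes without trend or robust), metformin minus saline, two-sided, with no covariates, and Benjamini-Hochberg adjustment over all genes. The fit was tried on simulated data with independent noise for each gene, which does not test shifts shared by many genes on an array. The samples are labelled biological replicates, and that they are separate mice is taken from the study design. The members and lists were chosen with earlier results of these data known. Named were each member called, the 3 with the smallest p in each subfamily, partner genes called or among the 6 with the smallest p, and Pkd1. Other genes are named to complete a subfamily, the regulator list, a marker list or a gene cluster, chosen after their values were seen. For replicates 1, 2 and 3 of the same number the deviations from the group mean had correlations across genes of 0.118, 0.145 and 0.541. The numbers were taken as pairs only in an alternative fit with replicate number as a block, not in the main fit. Saline 2 with metformin 1 reached 0.299, and the labels do not say what a number stands for. Alternatives were that block, each array left out, array weights, trend with robust options, quantile normalization, median-centring, a stricter and no filter, all clusters tested, and averaged clusters per gene.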

Additional observations from a re-analysis of the deposited data

How the results depend on the processing

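The replicate block gave 18 members, 7 partner genes and 4369 genes in all. It ended the calls of Cyp4b1, Cyp2d22 and Nr3c1, added Cyp2c68, Cyp4a31, Cyp2u1, Cyp2e1, Nr1i2 and Nr1h3, and changed no other call among the 59 members and 28 partner genes. With 1 array left out the number of members that fell ran from 1 to 18, of partner genes from 2 to 6 and of all genes called from 842 to 3961, and the members' median change from -0.41 to -0.31. Quantile normalization gave 27 members, 11 partner genes and a members' median of -0.51, and median-centring 19 and 11. The members' median was -0.10 with no filter, over 87 symbols, and -0.48 above the 50th percentile, over 45. All clusters tested together gave 7773 calls (5553 higher, 2220 lower) against 3489. Every change of sign was in a gene that did not pass. With 1 array left out the ranges were Cyp2c37 -0.06 to 0.03, Cyp2c65 -0.04 to 0.16, Cyp4f18 -0.04 to 0.08, Cyp4f37 -0.08 to 0.00, Cyp1b1 -0.30 to 0.02, Cyp3a13 -0.01 to 0.24, Cyp3a57 -0.06 to 0.02 and Ahr -0.13 to 0.25. Median-centring and quantile normalization turned Cyp2c65 to -0.06 and -0.03, Cyp2j13 to -0.01 and -0.09, Cyp4f18 to -0.08 and -0.08 and Ahr to -0.01 and -0.08, quantile normalization Cyp3a13 to -0.05, and array weights Cyp4f18 to 0.00. The cause of these shifts was not tested.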

Other observations

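Outside the rule lie 13 P450 clusters, since the platform gives them more than 1 symbol or a pseudogene symbol, and their adjusted p is taken over all 43992 clusters. Of these, 2 fell and 0 rose, with 8 changes below 0 and 5 above. In the same fit 2220 of all 43992 clusters fell and 5553 rose. The cluster shared by Cyp4a10 and Cyp4a31, both targets of Ppara, read 16.66, 16.75 and 16.77 with saline and 15.82, 16.41 and 16.14 with metformin. It fell by 0.60 ± 0.16 (limma adjusted p = 0.0386). The cluster of Cyp4b1-ps2 and Gm12839, a pseudogene of the Cyp4b1 gene that fell, read 8.61, 7.86 and 8.22 with saline and 6.72, 7.52 and 7.18 with metformin, and fell by 1.09 ± 0.25 (limma adjusted p = 0.0254). Its highest metformin array is array 2 and its lowest array 1, as for Cyp4b1. The cluster of Cyp2d11 changed by -0.57 ± 0.18 (limma adjusted p = 0.0657), that of Cyp4v3 and Klkb1 by -0.32 ± 0.11 (limma adjusted p = 0.0847), and that of Cyp2a5 and Cyp2a4 by -0.65 ± 0.34 (limma adjusted p = 0.232). The cluster of Cyp2a5 and Cyp2a4 was highest on saline array 3, at 13.79, the array on which Cyp2a4 was highest too. The log2 differences, metformin minus saline, of the pseudogenes Cyp2j7-ps, Cyp2d37-ps, Cyp4a28-ps, Cyp4f41-ps and Cyp21a2-ps were -0.39, -0.17, 0.01, 0.06 and 0.07. That of the Cyp4a30b cluster was -0.20, and those of the pair of clusters shared by Cyp3a41a and Cyp3a41b were 0.12 and 0.16. The limma adjusted p of these 8 clusters ran from 0.194 to 0.957.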
